A study of Mus musculus with 8 samples.

Results

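HMGA, LIN28 and IGF2BP proteins are often named together as oncofetal factors, because embryonic tissue makes them, most adult tissue has little, and several tumours switch them on again. The members were set by gene name: Hmga1, Hmga2, Lin28a, Lin28b, Igf2bp1, Igf2bp2 and Igf2bp3, each through every array probe set that the platform annotation assigns to that single symbol. Of these 7 genes, 5 had a probe set, and they had 17 probe sets of the 45037 non-control probe sets on the array. Hmga1 and Igf2bp2 had none under that single symbol and were not analysed here. The intensity filter described below kept 15 of the 17 probe sets and 4 of the 5 genes, of 10916 genes tested. Lin28b did not pass it, nor did 1 of the 4 Hmga2 probe sets.

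Mouse embryonic stem (ES) cells were profiled on Affymetrix mouse 430 2.0 arrays, 8 arrays in 4 groups of 2. They comprised cells of genotype Rbp2f/f or Rbp2-/- grown in medium that holds leukemia inhibitory factor (LIF), which keeps mouse ES cells from differentiating, and both genotypes again after 6 days in the same medium lacking LIF, here called LIF-cultured and LIF-deprived cells. RBP2 is the histone H3 lysine 4 demethylase now named KDM5A. The f/f notation usually stands for a floxed allele. The labels call the 2 arrays of each group biological replicates. Neither the number of clones nor the culture each array came from is given, so how independent the replicates were is not known. The p-values measure only the spread between these samples. The array feature for Kdm5a read 128.2 and 167.2 in LIF-cultured Rbp2f/f against 31.2 and 30.6 in LIF-cultured Rbp2-/-, and 225.7 and 246.6 against 100 and 80.2 without LIF, so in each medium both Rbp2-/- arrays were the lower ones. The position of that probe set against the deletion is not given in the sources used here, and the reading need not be of an intact message.

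HMGA proteins are small chromatin proteins whose AT-hooks bind the minor groove of AT-rich DNA and change its shape. LIN28A and LIN28B bind RNA, and bind precursors of the let-7 microRNAs at a GGAG element in the hairpin loop, where they block its processing, and LIN28A recruits a terminal uridylyltransferase that marks it for decay. Mature let-7 represses a large set of messages through its seed, among them Hmga2, Lin28 and the Igf2bp genes, so the families are drawn as one circuit. IGF2BP proteins bind messages such as Igf2, Myc and Cd44 and affect their stability, transport and translation.

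The let-7 precursors show the letters that the circuit turns on, with the seed (bases 2 to 8 of the mature arm) and the GGAG element in capitals. RefSeq (GRCm38.p6) lists 11 mouse let-7 hairpins. The seed GAGGUAG was in all 11, and GGAG followed the 5' arm in 9 and not in the other 2. Shown are let-7g from chr9:106178840-106178927 (plus strand), which has the element, and let-7b from chr15:85707319-85707403 (plus strand), which does not. Mature let-7 was not measured here.
let-7g: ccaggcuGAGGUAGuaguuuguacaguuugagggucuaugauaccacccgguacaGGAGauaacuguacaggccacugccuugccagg
let-7b: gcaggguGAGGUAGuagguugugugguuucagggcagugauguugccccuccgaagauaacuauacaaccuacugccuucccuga

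The start-site windows of the 3 members called in at least 1 comparison are shown, so that the letters beside each start can be read against the values below. Each window runs from 250 bases before to 50 after a start site listed by RefSeq (GRCm38.p6). Capitals mark CCGCCC (or its reverse complement GGGCGG), the motif described for the DNA-binding ARID domain of RBP2, and CACGTG, the E-box read by MYC and related factors. Both strands were searched, and the 2 motifs can share an end letter, which they do not in the windows shown. Of 32851 windows of this length, 35.7% held CCGCCC, 7.2% held CACGTG and 0.59% held CACGTG more than once. The Hmga2 window, chr10:120476420-120476719 on the minus strand, held 1 CCGCCC. The Igf2bp3 window, chr6:49214905-49215204 on the minus strand, held 2 CACGTG, and the first began 23 bases before the start site. The Lin28a window, chr4:134018767-134019066 on the minus strand, held 1 CCGCCC, which lay after the start site. A match is a match of letters and was not tested as a binding site.
Hmga2: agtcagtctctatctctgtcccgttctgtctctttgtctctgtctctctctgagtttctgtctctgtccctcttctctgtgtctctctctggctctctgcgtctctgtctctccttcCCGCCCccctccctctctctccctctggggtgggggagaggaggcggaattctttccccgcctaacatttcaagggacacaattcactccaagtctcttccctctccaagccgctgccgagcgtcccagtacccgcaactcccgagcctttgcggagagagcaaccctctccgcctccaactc
Igf2bp3: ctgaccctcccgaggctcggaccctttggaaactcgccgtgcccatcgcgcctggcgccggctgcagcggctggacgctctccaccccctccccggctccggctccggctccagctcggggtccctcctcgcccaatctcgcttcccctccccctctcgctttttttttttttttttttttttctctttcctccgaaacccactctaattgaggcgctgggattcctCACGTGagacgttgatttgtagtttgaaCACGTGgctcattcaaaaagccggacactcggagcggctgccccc
Lin28a: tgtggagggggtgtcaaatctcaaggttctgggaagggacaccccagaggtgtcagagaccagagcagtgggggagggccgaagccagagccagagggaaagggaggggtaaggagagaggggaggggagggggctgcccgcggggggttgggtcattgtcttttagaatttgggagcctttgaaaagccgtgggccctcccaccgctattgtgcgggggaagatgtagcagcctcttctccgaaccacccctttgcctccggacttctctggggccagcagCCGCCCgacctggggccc

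Values are the authors' linear intensities. An intensity depends on the probes, so levels were compared between groups within a probe set; a percentile among probe sets says only how bright a probe set was, not how much message a gene made. Differences were fitted with limma on log2(intensity + 16), for the 10916 genes at or above the 40th percentile of mean intensity, with calls made where the adjusted p over these genes was below 0.05. The brightest probe set stood for its gene. A second fit used all 27033 probe sets past the same percentile. Replicate 2 of LIF-cultured Rbp2-/- was dim, with a trimmed mean at 65.4% of that of the other arrays. The median gene differed between groups, by -0.28 (log2) for the genotype difference with LIF, 0.023 for that without LIF, 0.066 for withdrawal in Rbp2f/f and 0.39 for withdrawal in Rbp2-/-, and changes relative to these medians are given beside the fitted ones.

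Hmga2, whose product opens and bends chromatin in embryonic and mesenchymal cells, was the member that changed most. It lies on chromosome 10 (120361268 to 120476469, GRCm38.p6). The brightest of its probe sets, 1450780_s_at, read 391.3 and 266.4 in LIF-cultured Rbp2f/f, 768.3 and 1101.4 in LIF-cultured Rbp2-/-, 3896.9 and 3495.2 in LIF-deprived Rbp2f/f, and 3428.7 and 3766.2 in LIF-deprived Rbp2-/-. The 4 arrays without LIF were all above the 4 with LIF, and with LIF both Rbp2-/- arrays were above both Rbp2f/f arrays. The 2 groups without LIF overlapped.

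LIF withdrawal raised Hmga2 in both genotypes. In Rbp2f/f the mean intensity went from 329 ± 88.3 to 3696 ± 284 (SD, n = 2 each), a ratio of 11.2, and the log2 difference was 3.45 ± 0.26 (SE; limma adjusted p = 2.2e-06), 3.38 above the median gene. In Rbp2-/- it went from 935 ± 236 to 3597 ± 239 (SD, n = 2 each), a ratio of 3.85, with a log2 difference of 1.95 ± 0.26 (limma adjusted p = 0.00019), 1.56 above the median gene. As background, 13.4% of genes were called higher on withdrawal in Rbp2f/f and 19.7% in Rbp2-/-. Hmga2 lay at the 99.9th percentile of tested genes in Rbp2f/f and at the 98.8th in Rbp2-/-. It was called in 19 of 19 alternative settings in each genotype, with differences from 2.70 to 3.71 in Rbp2f/f and from 1.64 to 2.20 in Rbp2-/-.

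With LIF present, Hmga2 was higher in Rbp2-/- than in Rbp2f/f cells by 1.46 ± 0.26 (log2, SE; limma adjusted p = 0.03), a ratio of mean intensities of 2.84. It was 1 of 28 genes called in that comparison, and the background was 0.257% of genes in either direction and 0.0641% higher. Relative to the median gene the difference was 1.74. Hmga2 read 1101.4 on the dim array against 768.3 on its replicate, so the dim array held the higher value. Without the dim array the difference was 1.21, and without replicate 2 of LIF-cultured Rbp2f/f it was 1.20. The call was lost in both fits. Each leaves 1 array in a compared group, so the loss does not show how far the call rested on those arrays. After quantile normalization, which brings all arrays to one distribution, the difference was 1.74 ± 0.30 (limma adjusted p = 0.099), with no gene called of the 1431 at an unadjusted p below 0.05. Over 19 alternatives the difference stayed between 1.05 and 1.74, and it was called in 10 of them. The 1.05 came from the mean of all 4 Hmga2 probe sets, which includes 1446196_at, at 2.4 to 14.8 and under the filter.

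**Figure D1:**
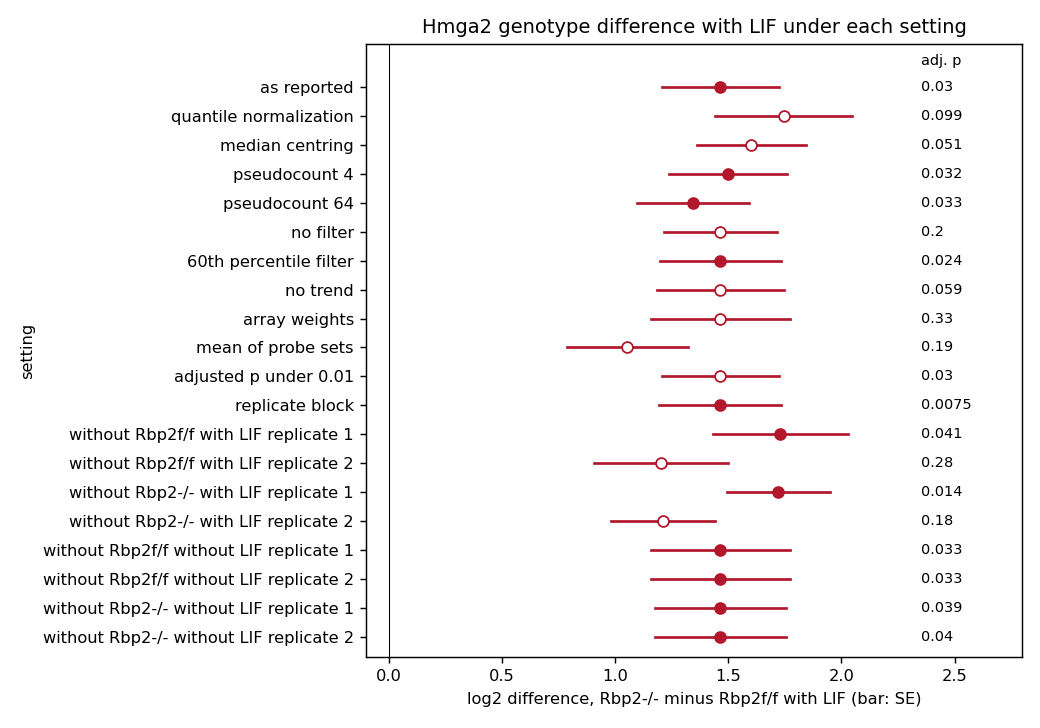
Hmga2 difference between Rbp2-/- and Rbp2f/f cells with LIF (x axis, log2, points; bars are ± 1 SE) under the reported setting and 19 alternatives (y axis), with the adjusted p at the right; filled points were called. Every point lies above 0, from 1.05 with the mean of the probe sets to 1.74 after quantile normalization, and 10 of the 19 alternatives keep the call.

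Without LIF the genotypes did not differ detectably in Hmga2. The mean intensities were 3696 ± 284 for Rbp2f/f against 3597 ± 239 for Rbp2-/- (SD, n = 2 each), with a log2 difference of -0.038 and a 95% interval from -0.59 to 0.51 (limma adjusted p = 0.98). In that comparison 0.0275% of genes were called. The difference between the withdrawal effects, Rbp2-/- minus Rbp2f/f, was -1.50 ± 0.36 (log2, SE), which had an unadjusted p of 0.000897 and a limma adjusted p of 0.32. No gene was called in that comparison, a background of 0%, and 1266 genes had an unadjusted p below 0.05. Without replicate 1 of LIF-cultured Rbp2-/-, which leaves the dim array alone in its group, it was -1.76 (limma adjusted p = 0.032), and 13.1% of all genes were then called.

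Both other Hmga2 probe sets past the filter gave the same order of media. The probe set 1422851_at read 208.2 and 68 in LIF-cultured Rbp2f/f, 378.5 and 661 in LIF-cultured Rbp2-/-, 2363.8 and 2194.3 in LIF-deprived Rbp2f/f, and 1744.3 and 2113.4 in LIF-deprived Rbp2-/-. Its groups did not overlap in either medium, the Rbp2-/- arrays being the higher ones with LIF and the lower ones after withdrawal. Non-overlap is common at 2 arrays a group: 4.42% of genes were separate and higher in LIF-cultured Rbp2-/-, and 23% were separate and lower without LIF. The probe set 1450781_at read 160.5 and 132.2, then 303.9 and 440.9, then 1679.4 and 1901.7, and 1643.1 and 1957.9 in the same order of groups. In the fit over probe sets, all 3 rose on withdrawal in Rbp2f/f (log2 3.45 to 4.06) and in Rbp2-/- (log2 1.91 to 2.24). All 3 were called in each genotype, where 7.66% of probe sets were called higher in Rbp2f/f and 11.4% in Rbp2-/-. With LIF, the genotype differences of the 3 were 1.46, 1.91 and 1.24, with limma adjusted p of 0.068, 0.12 and 0.13, so none was called, against 0.0407% of probe sets. The fourth probe set, 1446196_at, lay between 2.4 and 14.8 on every array, under the filter. The 3 brighter probe sets correlated over the 8 arrays at r = 0.97 to 0.99, as a description; they read 1 gene and are not replicates of each other.

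**Figure D2:**
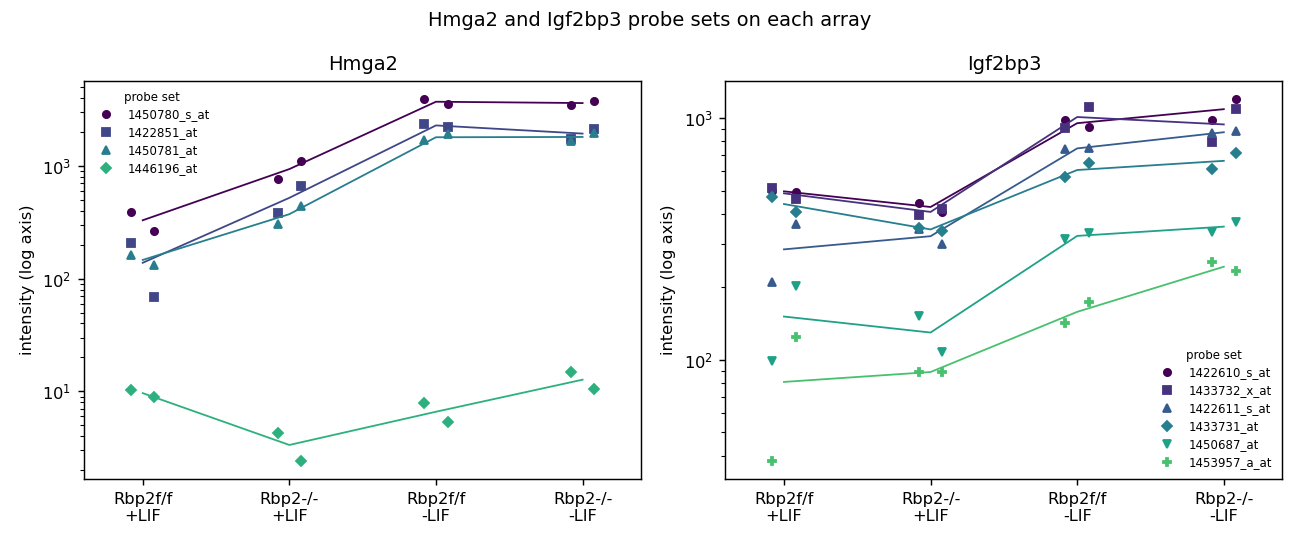
Intensity (log axis) of each Hmga2 probe set (left) and Igf2bp3 probe set (right) on each of the 8 arrays, by group; each point is 1 array, and lines join the means of the 2 arrays of a group. The 3 bright Hmga2 probe sets are lowest in LIF-cultured Rbp2f/f, between in LIF-cultured Rbp2-/- and highest without LIF, and all 6 Igf2bp3 probe sets are higher without LIF in both genotypes.

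Other high-mobility-group (HMG) proteins were set beside Hmga2, 6 of 9 listed genes being measured and tested. In Rbp2f/f, 2 of the 6 rose on withdrawal and 1 fell, and in Rbp2-/- 3 rose and none fell. Over all genes 13.4% were called higher and 6.97% lower on withdrawal in Rbp2f/f, and 19.7% and 3.33% in Rbp2-/-. Hmgb3, which binds DNA without sequence preference, rose by 1.49 ± 0.26 in Rbp2f/f and 1.70 ± 0.26 in Rbp2-/- (log2, SE), from 351.3 and 410.9 with LIF to 1173.7 and 1025.7 without in Rbp2f/f, and from 472.8 and 359.9 to 1375.6 and 1382.3 in Rbp2-/-. Hmg20b, a subunit of a histone demethylase and deacetylase complex, rose by 0.97 ± 0.27 and 0.79 ± 0.27. Hmgn5, a nucleosome-binding protein, fell by 1.30 on the log2 scale in Rbp2f/f, and its relative Hmgn3 rose by 1.08 in Rbp2-/-. The list's median was 0.30 in Rbp2f/f and 0.61 in Rbp2-/-, beside 0.066 and 0.39 over all genes. After quantile normalization 2 rose and 2 fell in Rbp2f/f, and 2 rose in Rbp2-/-.

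Genes described as acting with or under HMGA2 included the mesenchymal transcription factors Snai1 and Twist1. Of the 7 listed, 6 were tested and these were the 2 that rose, in both genotypes and also after quantile normalization. Over all genes 13.4% were called higher in Rbp2f/f and 19.7% in Rbp2-/-. The list's median was 0.52 in Rbp2f/f and 0.34 in Rbp2-/-, beside 0.066 and 0.39 over all genes. Twist1 read 47.3 and 36 with LIF against 218.5 and 195.8 without in Rbp2f/f, and 20.8 and 23.6 against 105.9 and 131.5 in Rbp2-/-. Its log2 differences were 1.96 ± 0.26 and 1.81 ± 0.26. Snai1 rose by 1.65 ± 0.25 and 1.59 ± 0.25. Neither was called between genotypes in either medium, including with LIF, where Hmga2 was.

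Lin28a, the cytoplasmic let-7 blocker of pluripotent cells, had a bright probe set in every group. It lies on chromosome 4 (134003330 to 134019196, GRCm38.p6). Its bright probe set 1437752_at read 2086.8 and 2288.1 in LIF-cultured Rbp2f/f, 1279.5 and 1211.4 in LIF-cultured Rbp2-/-, 1931.7 and 1645.9 in LIF-deprived Rbp2f/f, and 1810.1 and 2078.5 in LIF-deprived Rbp2-/-. LIF-cultured Rbp2f/f was highest and LIF-cultured Rbp2-/- lowest, and the groups without LIF lay between and overlapped each other. Its mean lay at the 98th percentile of all probe sets.

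Over the same 6 days, 8 of 9 pluripotency markers fell in both genotypes, among them Pou5f1, which fell by 3.07 and 2.59 on the log2 scale. The remaining 1 was called higher in both, by 1.42 in Rbp2f/f and 2.37 in Rbp2-/-. Over all genes 6.97% were called lower in Rbp2f/f and 3.33% in Rbp2-/-. The Lin28a difference on withdrawal in Rbp2f/f was -0.29 with a 95% interval from -0.75 to 0.17 (limma adjusted p = 0.38). In Rbp2-/- it was 0.63 ± 0.22 (limma adjusted p = 0.047), a called rise, but only 0.24 above the median gene. After quantile normalization that rise was 0.29 ± 0.18 (limma adjusted p = 0.31), in the fit over probe sets it had a limma adjusted p of 0.063, and it was called in 4 of 19 alternatives, with adjusted p from 0.019 to 0.32. When 1 array was left out, the call was kept only without replicate 1 of LIF-cultured Rbp2-/-, which leaves the dim array alone in its group. It was lost without any other array, also without each Rbp2f/f array, which enters that comparison only through the spread. The difference then ran from 0.53 to 0.73 over the arrays left out.

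Between genotypes with LIF, Lin28a was lower in Rbp2-/- by 0.80 ± 0.22 (log2 -0.80, limma adjusted p = 0.12), which did not pass the threshold, and by 0.52 relative to the median gene. The arrays did not overlap, and neither did those of 39.2% of genes in that direction. After quantile normalization the difference was -0.43 (limma adjusted p = 0.35). Without replicate 1 of LIF-cultured Rbp2-/- it passed, at -0.84 (limma adjusted p = 0.019), but only the dim array is then left in its group and 22.4% of all genes were called. Without LIF it was 0.12, with a 95% interval from -0.34 to 0.58 (limma adjusted p = 0.92). The second Lin28a probe set, 1421749_at, read 56 to 121 over all arrays and was not called in any comparison, and it correlated with the first at r = 0.38 over the 8 arrays.

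Lin28b, the paralog that is known to act mainly in the nucleus and nucleolus, had a dim probe set only. Its only probe set, 1430803_at, read 5 and 2.4 in LIF-cultured Rbp2f/f, 1.2 and 1.9 in LIF-cultured Rbp2-/-, 0.6 and 1.2 in LIF-deprived Rbp2f/f, and 6.5 and 0.4 in LIF-deprived Rbp2-/-. Its mean lay at the 8.83rd percentile of probe sets, and it was not tested. With 1 dim probe set, these readings do not show whether the message was there.

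**Figure D3:**
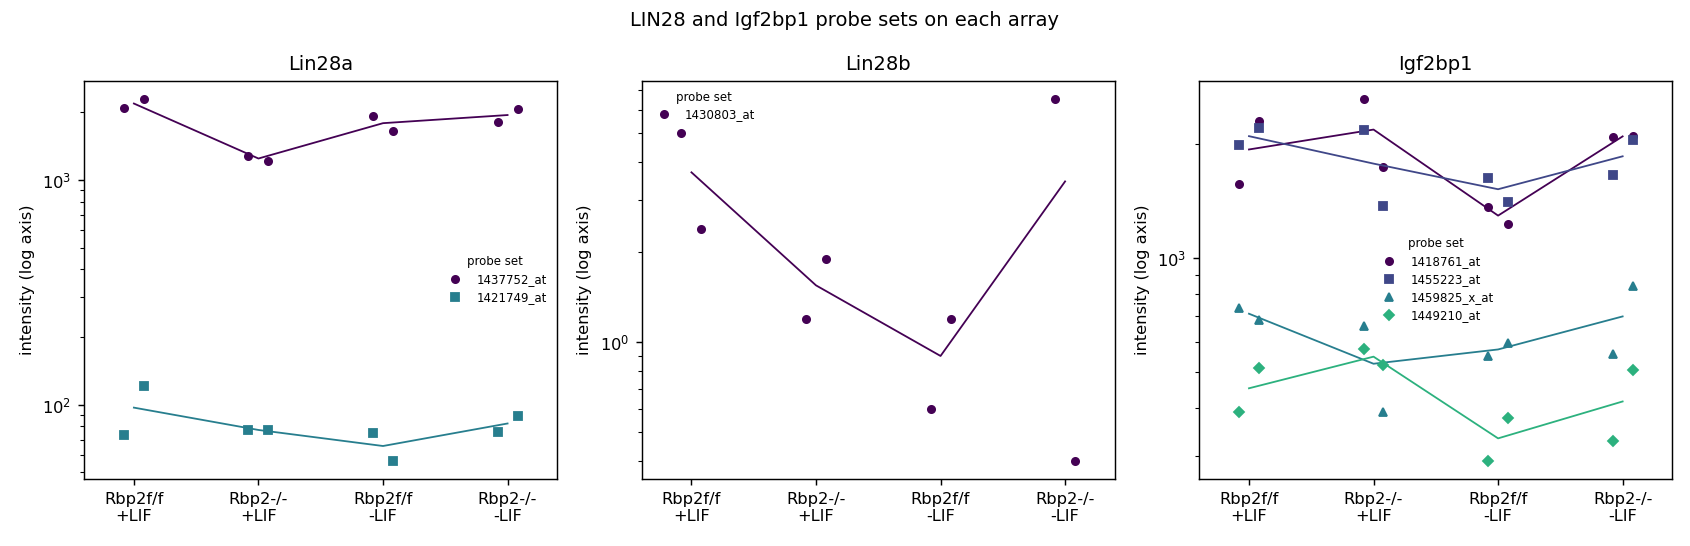
Intensity (log axis, with its own range in each panel) of the Lin28a, Lin28b and Igf2bp1 probe sets on each of the 8 arrays, by group; each point is 1 array, and lines join the means of the 2 arrays of a group. The bright Lin28a probe set is between 1211.4 and 2288.1 everywhere, Lin28b is between 0.4 and 6.5, and the 4 Igf2bp1 probe sets order the groups differently.

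Of 15 listed partners of LIN28 and of let-7 maturation, 13 were tested. None was called on withdrawal in Rbp2f/f, where 20.4% of all genes were called, and 1 rose in Rbp2-/-, where 23% were. That gene was Tut4, the terminal uridylyltransferase that LIN28A recruits to let-7 precursors, at 1.03 ± 0.28 (log2, SE; limma adjusted p = 0.018) and 0.65 above the median gene. Tut4 read 277.6 and 397.2 with LIF and 671.5 and 506.2 without in Rbp2f/f, and 292 and 261.2 against 522.3 and 649.2 in Rbp2-/-. After quantile normalization 1 rose and 2 fell in Rbp2f/f, and none was called in Rbp2-/-. None of the 13 was called between genotypes in either medium.

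Igf2bp1, which binds and shields messages such as Myc and Actb, did not pass the threshold in any comparison. It lies on chromosome 11 (95957163 to 96005944, GRCm38.p6). Its brightest probe set, 1418761_at, read 1571.3 and 2295.4 in LIF-cultured Rbp2f/f, 2626.6 and 1738.2 in LIF-cultured Rbp2-/-, 1360 and 1225.1 in LIF-deprived Rbp2f/f, and 2083.2 and 2104.3 in LIF-deprived Rbp2-/-. LIF-deprived Rbp2f/f was the lowest group and stood apart, and the other 3 groups overlapped each other in order of their means.

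Without LIF, Igf2bp1 was higher in Rbp2-/- by 0.69 ± 0.25 (log2, SE; 95% interval 0.15 to 1.23; unadjusted p = 0.0158, limma adjusted p = 0.33). It passed only with array weights (limma adjusted p = 0.035), where 4.46% of all genes were called. The arrays of the brightest probe set did not overlap there, as was so for 30.5% of genes in that direction. The other 3 probe sets differed by 0.25 to 0.29, none called. On withdrawal in Rbp2f/f the difference was -0.55 ± 0.25 (limma adjusted p = 0.14), and the 4 probe sets gave -0.55, -0.46, -0.31 and -0.42. All 4 had both arrays without LIF below both with LIF, as 30% of genes did. Array weights brought it past the threshold (limma adjusted p = 0.03), where 33.9% of all genes were called. It also passed when either Rbp2-/- array with LIF was left out. Those arrays enter the comparison only through the spread, and the difference stayed at -0.55. Such a fit leaves 1 array in that group, so passing there is not read as a result for Igf2bp1. On withdrawal in Rbp2-/- it was -0.029, with a 95% interval from -0.57 to 0.51 (limma adjusted p = 0.94). The probe set 1449210_at read 575.5 and 519.8 before that withdrawal and 327.7 and 506.1 after it, without overlap, as 7.7% of genes did in that direction, and was not called.

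The Igf2bp1 probe sets differed among themselves, with r from 0.19 to 0.76 over their 6 pairs. The probe set 1455223_at read 1990.3 and 2203, 2180.8 and 1367, 1627.4 and 1408, and 1657.7 and 2051.5 in LIF-cultured Rbp2f/f, LIF-cultured Rbp2-/-, LIF-deprived Rbp2f/f and LIF-deprived Rbp2-/-. The dim array was the lowest of the 8 for this one and for 1459825_x_at, at 390.7 against 549.6 to 842.6 on the others, and not for 1418761_at or 1449210_at. With LIF the 4 genotype differences ranged from -0.47 to 0.28, so no direction is given for Igf2bp1 there.

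Igf2bp3, the family member most often described in tumours, rose on withdrawal in both genotypes. It lies on chromosome 6 (49085218 to 49215469, GRCm38.p6). Its brightest probe set, 1422610_s_at, read 498.1 and 494.8 in LIF-cultured Rbp2f/f, 445.7 and 409.7 in LIF-cultured Rbp2-/-, 983 and 916.4 in LIF-deprived Rbp2f/f, and 976.3 and 1194 in LIF-deprived Rbp2-/-. Every array without LIF was above every array with LIF, and the genotypes overlapped without LIF.

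The mean rose from 496 ± 2.33 to 950 ± 47.1 in Rbp2f/f, a ratio of 1.91, and from 428 ± 25.5 to 1085 ± 154 in Rbp2-/-, a ratio of 2.54 (SD, n = 2 each). The log2 differences were 0.91 ± 0.25 (limma adjusted p = 0.018) and 1.31 ± 0.25 (limma adjusted p = 0.0023), 0.85 and 0.92 above the median gene. After quantile normalization they were 0.91 and 0.95 (limma adjusted p = 0.0071 and 0.0087). The difference between genotypes in the withdrawal effect was 0.39, with a 95% interval from -0.36 to 1.14 (limma adjusted p = 0.64). In Rbp2f/f the call was lost without any 1 of the 4 arrays compared, at log2 differences of 0.86 to 0.96 and limma adjusted p of 0.092 and 0.087 without replicate 1 and 2 with LIF, and 0.16 and 0.14 without replicate 1 and 2 lacking it. In Rbp2-/- it was called in 19 of 19 alternatives.

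All 6 Igf2bp3 probe sets had both arrays without LIF above both with LIF in each genotype, as did 38.5% of genes in Rbp2f/f and 51.9% in Rbp2-/-. In the fit over probe sets, 4 of 6 were called higher in Rbp2f/f, where 7.66% of probe sets were, and 6 of 6 in Rbp2-/-, where 11.4% were. The differences in Rbp2-/- ran from 0.91 to 1.39. In Rbp2f/f, 1433731_at, at 472.4 and 407.4 with LIF and 569.1 and 647.3 without, differed by 0.45 (limma adjusted p = 0.29). The dimmest, 1453957_a_at, at 38 and 123.8 with LIF and 142.4 and 172.9 without, differed by 0.99 (limma adjusted p = 0.11). The probe sets correlated at r = 0.64 to 0.97 over their 15 pairs, and they read 1 gene.

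Between genotypes with LIF, Igf2bp3 differed by -0.21, with a 95% interval from -0.74 to 0.32 (limma adjusted p = 0.67), and by 0.071 relative to the median gene. After quantile normalization it was 0.12. Without LIF the difference was 0.18, with a 95% interval from -0.35 to 0.71 (limma adjusted p = 0.89). Hmga2 and Igf2bp3 correlated at r = 0.87 over the 8 arrays, and the other 5 pairs of tested members lay between -0.49 and 0.17; the arrays share 2 media and the dim library, and no test is given.

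**Figure D4:**
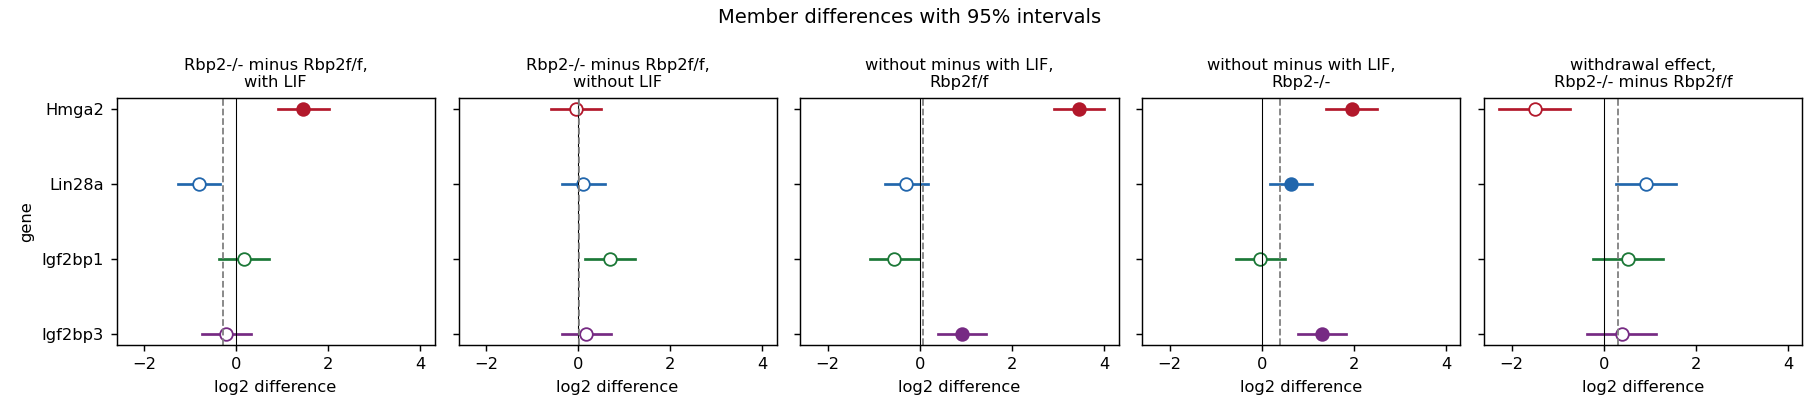
Log2 differences (x axis) of the 4 tested members (y axis) in 5 comparisons, with 95% intervals; filled points were called at an adjusted p below 0.05, the solid line is 0 and the dashed line is the median of all tested genes. Hmga2 is filled in the comparison with LIF and in both withdrawals, Igf2bp3 in both withdrawals, Lin28a in the Rbp2-/- withdrawal and Igf2bp1 nowhere.

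Of 13 listed partners and bound messages of the IGF2BP proteins, 11 were tested, and 2 rose and none fell on withdrawal in each genotype, a share near that of all genes (13.4% higher in Rbp2f/f and 19.7% in Rbp2-/-). Igf2, the growth factor whose message gave the family its name, read 879.4 and 473 with LIF and 4705.5 and 3598.6 without in Rbp2f/f, and 382.1 and 637.1 against 3984 and 3526.6 in Rbp2-/-. Its log2 differences were 2.64 ± 0.31 (limma adjusted p = 5.5e-05) and 2.88 ± 0.31 (limma adjusted p = 3.5e-05). Cd44, a hyaluronan receptor, rose by 2.66 ± 0.37 and 1.53 ± 0.37. Between genotypes with LIF, Cd44 read 167.6 and 271.8 in Rbp2-/- against 82.6 and 24.8 in Rbp2f/f. The arrays did not overlap, as was so for 4.42% of genes in that direction. That log2 difference was 1.86, beside 1.46 for Hmga2, and was not called. Cd44 is also made by fibroblasts. The list's median was -0.20 in Rbp2f/f and 0.19 in Rbp2-/-, beside 0.066 and 0.39 over all genes. After quantile normalization 2 rose in Rbp2f/f and 1 in Rbp2-/-.

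Of 23 listed targets of let-7 other than the members, 20 were tested; 7 rose and 2 fell in Rbp2f/f, and 7 rose and none fell in Rbp2-/-. Over all genes 13.4% rose and 6.97% fell in Rbp2f/f, and 19.7% rose and 3.33% fell in Rbp2-/-. Prtg, a cell-surface receptor of the early neural tube and mesoderm, rose by 2.50 ± 0.44 and 2.64 ± 0.44, and Ccnd2, a G1 cyclin, by 2.53 ± 0.35 and 1.29 ± 0.35 (log2, SE, Rbp2f/f then Rbp2-/-). Igf1r, the receptor that binds IGF2, rose by 1.28 ± 0.29 and 1.38 ± 0.29. Insr, the insulin receptor, rose by 1.15 in Rbp2-/-, and Thbs1, a matrix glycoprotein, by 1.77 in Rbp2f/f. Mycn, which ES cells make at a high level, fell by 1.75 on the log2 scale in Rbp2f/f, from 1813.4 and 2127.6 to 645.7 and 510.5. The list's median was 0.24 in Rbp2f/f and 0.32 in Rbp2-/-, beside 0.066 and 0.39 over all genes, so in Rbp2-/- it lay below the median gene. After quantile normalization 7 rose and 2 fell in Rbp2f/f, and 4 rose and 2 fell in Rbp2-/-.

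Of the 6 lists, other oncofetal genes held the largest share of risers. Of 9 listed, 7 were tested, with 6 higher and 1 lower in Rbp2f/f and 5 higher and none lower in Rbp2-/-. Over all genes 13.4% were called higher and 6.97% lower in Rbp2f/f, and 19.7% and 3.33% in Rbp2-/-. The list's median was 1.79 in Rbp2f/f and 1.72 in Rbp2-/-, beside 0.066 and 0.39 over all genes. Lineage marker lists, summed below, held similar shares. In Rbp2f/f 6 of 7 tested feeder fibroblast, 5 of 6 extraembryonic endoderm, 4 of 4 mesoderm and 0 of 2 neuroectoderm markers were called higher. In Rbp2-/- these counts were 4, 5, 3 and 0. Gpc3, a cell-surface proteoglycan of fetal tissue and liver tumours, read 94.2 and 113.1 with LIF and 1035.7 and 880.7 without in Rbp2f/f, and 129.7 and 164.6 against 1207.6 and 1153.7 in Rbp2-/-. It rose by 3.03 ± 0.26 and 2.88 ± 0.26. Dlk1, an imprinted transmembrane protein, rose by 2.86 ± 0.41 and 1.72 ± 0.41, and Mest, another imprinted gene, by 1.79 ± 0.24 and 1.95 ± 0.24. Sall4, a transcription factor of pluripotent cells, was the one that fell, by 1.15 on the log2 scale in Rbp2f/f. Afp, the yolk sac and fetal liver protein, read 1.1 to 8.8 on all arrays and was not tested. Igf2 is in this list too. After quantile normalization 5 rose and 1 fell in Rbp2f/f, and 4 rose in Rbp2-/-. None of the 6 lists held a gene called between genotypes in either medium, or in the difference of the withdrawal effects.

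**Figure D5:**
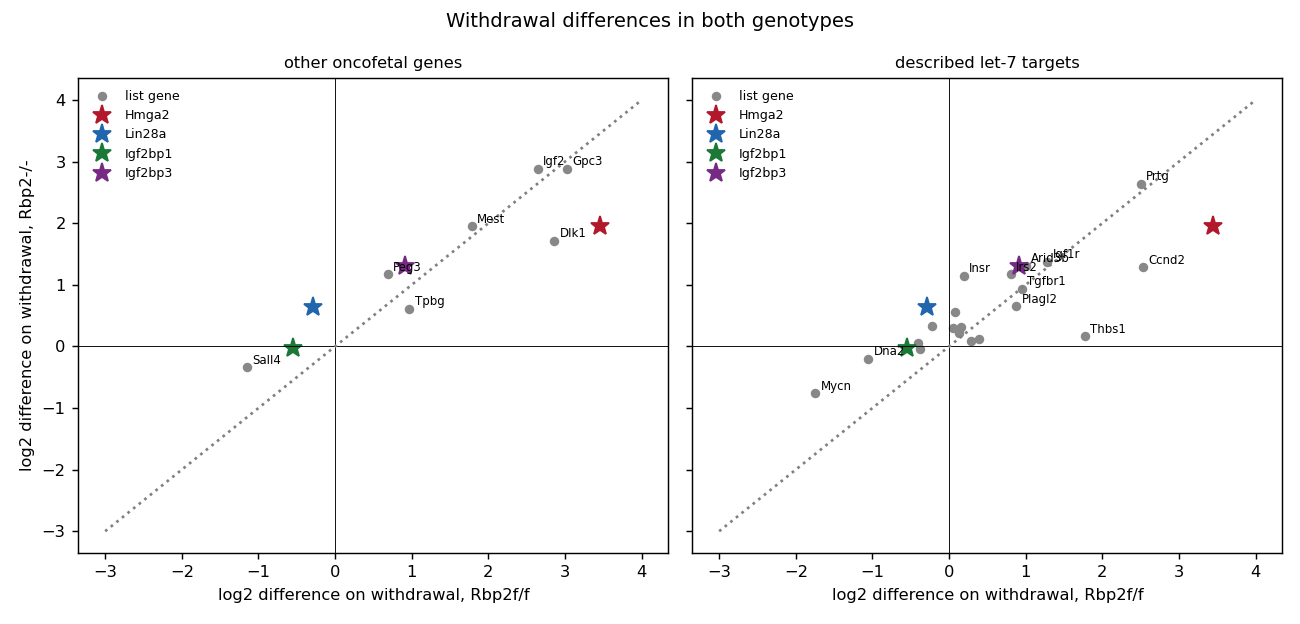
Log2 difference on LIF withdrawal in Rbp2f/f (x axis) and in Rbp2-/- (y axis) for other oncofetal genes (left) and described let-7 targets (right), each grey point a gene, with the 4 tested members as stars in both panels; named points were called in at least 1 genotype, and the dotted line marks equal differences. Hmga2 lies at 3.45 and 1.95, right of the other oncofetal genes and below the line, and Igf2bp3 at 0.91 and 1.31, near Peg3.

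Markers of other cells moved with the risers. The summed intensity of 9 measured feeder fibroblast markers was 335.4 to 802.8 on the arrays with LIF and 1499 to 3797.7 on those without, and that of 5 mesoderm markers was 207.2 to 601.3 and 1187.2 to 5483.6. For 8 extraembryonic endoderm markers the sums were 380.4 to 798.5 and 1124.8 to 1686.4, and for 9 pluripotency markers 6168.1 to 11728.4 and 1770.1 to 2001.8. The 5 neuroectoderm markers summed to 260.5 to 713.2 with LIF and 187.7 to 475.7 without. No marker was at 0 on any array. The lists are named for cells that such markers are often used for, and whether feeder cells were present was not tested. With LIF, the feeder sum was 802.8 and 494.4 in Rbp2-/- against 570.1 and 335.4 in Rbp2f/f, which overlap. Single markers did separate. Col1a2 was higher, at 231.9 and 172.8 against 109.4 and 58.1. Pdgfrb was higher, at 20.9 and 23 against 13.4 and 12.8, as 4.42% of genes were. Thy1 was lower, at 41.7 and 19.4 against 59 and 52.8, as 39.2% of genes were. The other feeder markers overlapped. The feeder list's median was 0.355, beside -0.28 over all genes, and 0 of 7 tested genes were called. The sums of the other 3 lineage lists did not overlap. The mesoderm sum was higher in Rbp2-/-, at 601.3 and 375.4 against 307.7 and 207.2, with 0 of 4 tested genes called. Its markers differed: Msx2 was higher, at 115.8 and 198.7 against 101.6 and 53.8. Hand1 overlapped, at 399.9 and 88.9 against 113.8 and 87. The untested marker was lower, at 0.6 and 8.1 against 10.7 and 12.7. The other 2 sums were lower in Rbp2-/-. The neuroectoderm sum was 260.5 and 267.4 against 666.8 and 713.2, with 1 of 2 tested genes called lower, against 0.192% of all genes. The extraembryonic endoderm sum was 489.9 and 380.4 against 798.5 and 659.8, with 0 of 6 tested genes called. Lamb1 held most of that sum, at 293.3 and 193.7 against 556.8 and 463.8. Dab2 and Foxa2 were lower too without overlap, as Lamb1 was and as 39.2% of genes were. Gata4, Gata6, Sox7, Sox17 and Cubn overlapped, so the lower sum does not hold for the list as a set. In bulk samples fewer cells of a type and less RNA per cell cannot be told apart, and the part of these cells in the Hmga2 and Igf2bp3 differences was not tested.

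The genes with the most similar pattern to each member were found by Pearson r over the 8 arrays, on log2(intensity + 16) less each array's median, among 10573 genes. For Hmga2 they were Rtl8c, Elovl1 and Ppfibp1 (r = 0.99, 0.99 and 0.98). Rtl8c read 6.8 and 3.3 in LIF-cultured Rbp2f/f, 17.9 and 22.4 in LIF-cultured Rbp2-/-, 85.7 and 97.6 in LIF-deprived Rbp2f/f, and 79.7 and 96.6 in LIF-deprived Rbp2-/-, the group order of Hmga2's mean. Elovl1, a fatty acid elongase, read 164.1 and 159, 253.8 and 249.1, 556.9 and 658.2, and 580.1 and 636.8 in that order of groups. For Igf2bp3 they were Rab13, Jcad and Fam199x (each r = 0.99), and Rab13, a small GTPase of cell junctions, read 91.5 to 117.7 with LIF and 250.9 to 289.9 without.

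For Lin28a the nearest were Sepsecs, Ptbp2 and Ttc14 (r = 0.96, 0.96 and 0.95). Ptbp2, a splicing regulator, read 225.3 and 257.6 in LIF-cultured Rbp2f/f, 124.3 and 96.1 in LIF-cultured Rbp2-/-, and 169.2 to 231 without LIF, so it shared the low Rbp2-/- group with LIF. For Igf2bp1 they were Tmem209, Fmnl1 and Smyd5 (each r = 0.98), and Tmem209 read 152 and 125.4 in LIF-deprived Rbp2f/f and 175.9 to 283.3 on the other arrays. These genes were picked as the highest of 10573 over 8 arrays, so the r values describe the choice.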

How the data were processed

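Total RNA of 8 mouse ES cell samples was hybridised to Affymetrix mouse 430 2.0 arrays, from 6 ug of RNA each per the labels' protocols. The deposited values are linear intensities, 1 per probe set, that the authors had already summarised; on software, background correction and scaling nothing is given in the sources used here, and the number of arrays limits the precision. Probe sets were named by the platform annotation where it gave 1 symbol (18193 genes). In R 4.3.3 with limma 3.58.1, log2(intensity + 16) was fitted to 4 group means (lmFit, eBayes with trend) for 10916 genes at or above the 40th percentile, 1 probe set a gene by highest mean, with Benjamini-Hochberg adjustment, and again for 27033 probe sets. Quantile normalization, median centring, pseudocounts of 4 and 64, other filters, array weights, the mean of probe sets, a threshold of 0.01, a replicate block and leaving out each array were the alternatives. The mean of probe sets took all those of a gene, also the dim ones. The labels do not say that a replicate number marks a shared culture or day, so the fit without the block is the one reported. Named were all members, up to 5 called genes of each list by smallest p, the 3 genes most like each member and Kdm5a. The list genes printed are a subset of these, with some marker genes added where a marker sum is split. The members and lists were chosen with earlier results of these data known. Scripts were tested on simulated data. Sequences come from RefSeq; 6 of the 7 members had a start-site window, and no protein was used.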

Additional observations from a re-analysis of the deposited data

How the results depend on the processing

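Across 19 alternatives, the withdrawal calls of Hmga2 in both genotypes and of Igf2bp3 in Rbp2-/- were kept in all 19. The number of members called between genotypes with LIF, 1 as reported, was 0 after quantile normalization, with median centring, with no filter, with no trend, with array weights, with the mean of probe sets and at an adjusted p below 0.01; leaving out 1 array gave 0 to 2 (2 without replicate 1 of Rbp2-/- with LIF). Between genotypes after withdrawal the number was 0, and 1 with array weights; leaving out 1 array gave 0 to 0. On withdrawal in Rbp2f/f it was 2, 3 with array weights (Igf2bp1 added) and 1 at an adjusted p below 0.01; leaving out 1 array gave 1 to 3. On withdrawal in Rbp2-/- it was 3, and 2 after quantile normalization, with median centring, no filter, no trend, array weights, the mean of probe sets, an adjusted p below 0.01 or the block; leaving out 1 array gave 2 to 3. For the difference of the withdrawal effects it was 0, and leaving out 1 array gave 0 to 2, with 2 (Hmga2 and Lin28a) without replicate 1 of Rbp2-/- with LIF. Member probe sets called over all comparisons numbered 16, 9 at an adjusted p below 0.01 and 7 to 22 when 1 array was left out. The lower number at the stricter threshold follows from the threshold; the cause of the others was not tested.

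Small differences turned sign, none of them called. Igf2bp1 with LIF was -0.075 with the mean of probe sets, -0.10 without replicate 1 of Rbp2f/f and -0.13 without replicate 1 of Rbp2-/-, in a range of -0.13 to 0.46 when 1 array was left out; Igf2bp3 with LIF was 0.12 after quantile normalization. Hmga2 without LIF was 0.016 with the mean of probe sets, 0.040 without replicate 1 of Rbp2f/f and 0.029 without replicate 1 of Rbp2-/-, in a range of -0.12 to 0.040. Igf2bp1 on withdrawal in Rbp2-/- was 0.019 with the mean of probe sets and 0.27 without replicate 1 with LIF, in a range of -0.32 to 0.27.

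Deviations of same-numbered arrays from their group means correlated at 0.25 to 0.26 over genes in the 3 pairs of groups that leave out LIF-cultured Rbp2f/f, and at -0.083 to 0.0016 in the 3 that hold it. Not every pair was above 0.1, so the numbers were not taken to pair the arrays, which these values do not settle. With the replicate number as a block, 117 genes were called between genotypes with LIF (28 as reported), 149 without LIF (3), 2398 and 2677 on withdrawal in Rbp2f/f and Rbp2-/- (2226 and 2512) and 10 in the difference of the withdrawal effects (0). The members called under the block were 1, 0, 2, 2 and 0, the Lin28a rise being lost (limma adjusted p = 0.056), and 17 member probe sets were called.

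After quantile normalization 1531 genes rose and 1425 fell on withdrawal in Rbp2f/f (1465 and 761 as reported), and 800 rose and 891 fell in Rbp2-/- (2149 and 363). Array weights called 0 genes with LIF, 487 without LIF, 3705 and 1000 on withdrawal. Intensities have no known background level, so a low reading such as that of Lin28b has no bound, and 2 arrays a group limit every test.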
